A study of Arabidopsis thaliana with 7 samples.

Results

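The MYB genes examined here are the protein-coding genes of Arabidopsis whose symbol in the RefSeq gene table is MYB followed by a number alone, without the flavonol and anthocyanin regulators MYB11, MYB12, MYB111, MYB75 and MYB90. This gave 111 genes of 27444 protein-coding genes on the 5 nuclear chromosomes. They were chosen by name and not by any measured value, though with earlier results of these data known. Each was examined for binding of HY5, a bZIP factor through which light drives seedling greening and halts hypocotyl growth. The assay was ChIP-seq, which sequences the DNA that comes down with an antibody-bound protein.

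The blue light group and the red light group held 3 biological replicates each. All plants were of the Wassilevskija (Ws) accession, carried the hy5-ks50 T-DNA insertion and expressed HY5 fused to yellow fluorescent protein (HY5-YFP). After growth in light-dark cycles of white light, plants spent 52 hours in either colour at a fluence rate of 15 µmol per square metre and second, and were fixed whole at an age of 10 days. A mock pull-down with bare beads, made on a mix of the blue replicates, served as the authors' control for every peak list, so binding refers to HY5-YFP over this mock. No source used here names the promoter of the fusion, and pull-down from plants without the fusion was not analysed here.

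MYB proteins with 2 repeats of the MYB domain (R2R3-MYB) form one of the largest families of plant transcription factors. They bind DNA through these repeats and control branches of phenylpropanoid, glucosinolate, wax and cell wall metabolism, responses to abscisic acid (ABA) and stress, and the fate of epidermal and reproductive cells. HY5 binds DNA elements with an ACGT core, and the flavonol regulators left out here are among its best known MYB targets. No sequence is printed because no genome or promoter table was used here.

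Libraries held 7.99 to 11.7 M tags (1 M is 1e6) in blue light and 10.6 to 11.9 M in red light. The authors' lists hold 8524 to 8888 peaks in blue light and 4027 to 5672 in red light, and peaks took up 24.8% to 25.7% of the tags in blue and 12.7% to 15.9% in red light. Red light replicate 1 stands apart: its peak windows are 549 bp wide, against 340 to 348 bp in blue light and 306 and 312 bp in the other red light libraries. Its estimated fragment length was 548 bp, against 188 to 226 bp in the others, and the part of either in its tag numbers was not tested. A tag value below is the number of tags in a peak, scaled by the authors to 10 M tags of the library. A gene counted as called in a library when a peak centre lay from 1500 bp outside to 500 bp inside either gene end. Peaks of the 6 lists that shared at least 1 bp were joined into a site, and a site with peaks in 2 or more of the 3 libraries of a light was named a consensus site of that light. It counted for a gene where the peak centres of at least 2 of those libraries lay in the gene's window.

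The share of MYB genes with a HY5-YFP peak lay below that of all protein-coding genes in each of the 6 libraries. In blue light 33, 33 and 36 of the 111 MYB genes were called in replicates 1, 2 and 3, or 29.7%, 29.7% and 32.4%, against 43.7%, 42.8% and 44.1% of all protein-coding genes. In red light 17, 22 and 22 were called, or 15.3%, 19.8% and 19.8%, against 21.9%, 29.2% and 28.1% of all genes. The mean was 34.0 ± 1.73 MYB genes in blue light and 20.3 ± 2.89 in red light (SD, n = 3 each), and the 2 ranges did not overlap. The share of MYB genes was 0.703 ± 0.0288 times that of all genes in blue light and 0.694 ± 0.0147 times in red light (SD, n = 3 each). No test was made of the list of MYB genes, so these shares are a description.

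**Figure D1:**
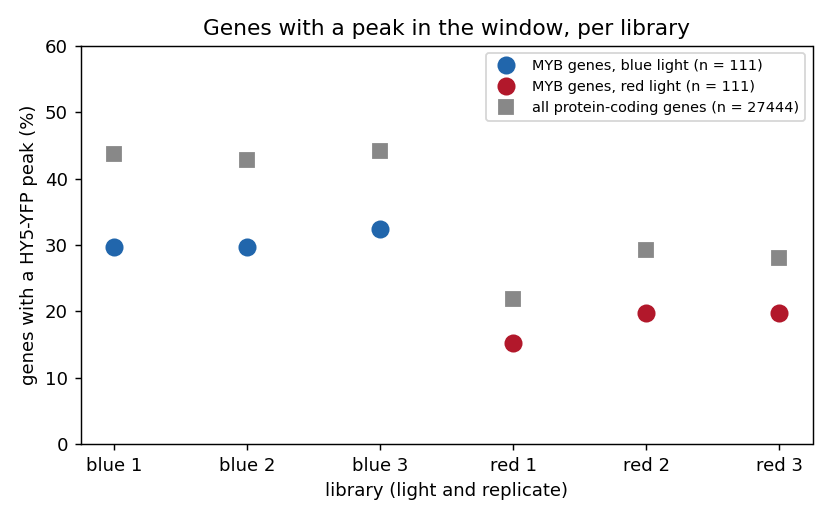
Share of genes (%) with a HY5-YFP peak in the window, for each of the 6 libraries on the x axis, for 111 MYB genes (circles, blue or red by light) and all 27444 protein-coding genes (grey squares). In each library the MYB genes sit below all genes, at 29.7% to 32.4% in blue and 15.3% to 19.8% in red light.

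A blue consensus site was found at 32 MYB genes (28.8%, against 43.2% of all protein-coding genes) and a red one at 21 (18.9%, against 26.3%). The 21 with a red consensus site all had a blue one too, so that 18.9% of the MYB genes had both, against 26.1% of all genes. Over all protein-coding genes, 7169 of the 7222 with a red consensus site had a blue one too. A blue one alone was found at 11 MYB genes (17.1% of all genes had a blue one alone). Red consensus sites were present at 65.6% of the blue consensus MYB genes and at 60.4% of all blue consensus genes. A peak in any library was found at 41 MYB genes, against 49.5% of all genes, and the other 70 (63.1%) had none. Of the 41 with a peak, 15 had a site called in all 6 libraries (13.5% of the MYB genes, against 19.1% of all genes). A peak in 1 library alone was found at 9, and the share of all genes with such a peak was not counted.

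Consensus sites of MYB genes lay farther out from the gene, by the median, than those of all protein-coding genes. The 32 genes had 34 consensus sites, since MYB74 and MYB112 had more than one, and 7 of them were centred inside the MYB gene. The median distance from the site's centre to the nearer end of its own gene was 635 bp for the MYB genes and 239 bp over 13475 pairs of a protein-coding gene and a consensus site. Of the 34 sites 12 (35.3%) were centred inside the gene or within 500 bp outside it, against 67.2% of those pairs. MYB genes also had wider gaps to the neighbouring protein-coding genes. The gap, averaged over both sides of a gene, had a median of 2813 bp for MYB genes, against 929 bp over all genes. Of the 34 sites 15 (44.1%) lay in the window of another gene as well, against 77.7% of the pairs. The part of gene spacing in the lower share of called MYB genes was not tested.

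The size of the gap to all genes moved with the window and the peak threshold. With windows of 500 bp outward 12 MYB genes had a blue consensus site (10.8%, against 30.8% of all genes) and 7 a red one (6.31%, against 18.4%). With windows of 3000 bp outward there were 52 (46.8%, against 58.3%) and 36 (32.4%, against 37.5%). When each peak counted for the protein-coding gene with the nearest end alone, 23 MYB genes (20.7%) had a blue consensus site, against 27.4% of all genes, and 15 (13.5%) a red one, against 16.3%. Requiring 8-fold or more over the mock, the blue count was 19 (17.1%, against 22.9%) and the red count 6 (5.41%, against 9.82%). With equally long lists, cut to the 4027 highest peaks a library, 16 MYB genes (14.4%, against 20.8%) had a blue and 17 (15.3%, against 20.8%) a red consensus site, so that the blue count was not above the red one. With a consensus of all 3 libraries the counts were 29 (26.1%, against 37.9%) and 15 (13.5%, against 19.3%). The MYB share was below that of all genes in both lights under each of these settings, and the ratio of the shares ranged from 0.351 to 0.804 in blue and from 0.344 to 0.864 in red light over the 3 windows.

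**Figure D2:**
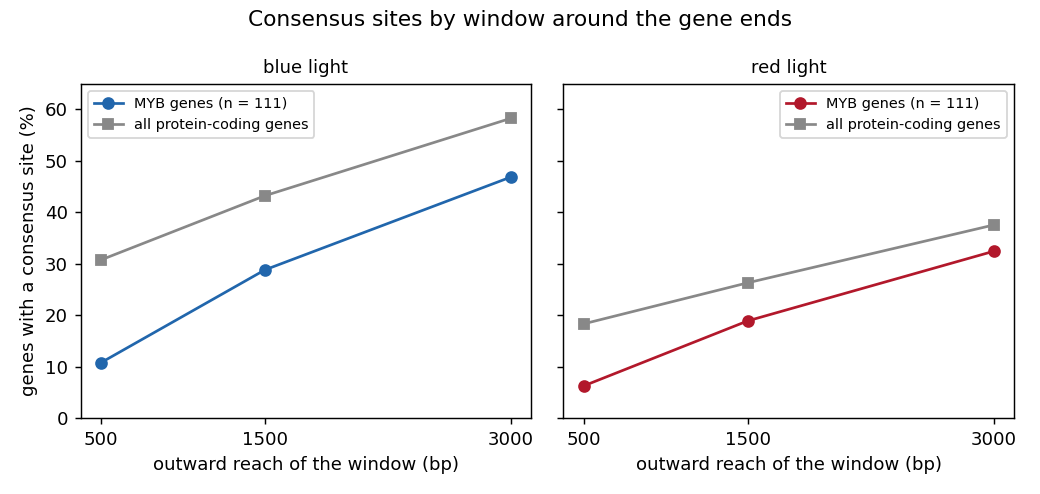
Share of genes (%) with a consensus site against the outward reach of the window (bp), in blue light (left) and red light (right), for 111 MYB genes (coloured circles) and all protein-coding genes (grey squares). The MYB genes lie at 10.8%, 28.8% and 46.8% in blue light for windows of 500, 1500 and 3000 bp, below all genes in both panels.

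Where a MYB gene had a consensus site, its height was near that of other genes' sites. The highest blue consensus site of a MYB gene had a median of 234 tags over 32 genes, with quartiles of 164 and 338, against 222 tags over 11864 protein-coding genes, with quartiles of 154 and 354. In red light the median was 208 tags over 21 MYB genes, against 213 over 7222 protein-coding genes. The highest MYB site reached 831 tags as a blue mean and 551 as a red mean, against 9184 and 13514 for the highest site of any protein-coding gene. At the 16 MYB sites called in all 6 libraries the blue library medians were 345, 332 and 353 tags, against 362, 352 and 363 over all 3557 such sites. The red library medians were 296, 219 and 209 tags at the MYB sites, against 319, 220.1 and 219.6 over all of them.

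Grouped by role, the ABA and abiotic stress group had the largest share of called genes. Of 10 such MYB genes 8 carried a consensus site in blue and 6 in red light, against 43.2% and 26.3% of all genes. These 8 were MYB2, MYB13, MYB15, MYB70, MYB73, MYB74, MYB77 and MYB102, of which MYB2 and MYB15 had no peak in any red library. Only MYB15 and MYB77 had a consensus site centred within 500 bp of a gene end, at 150 and 69 bp. At the others of the 8 the consensus sites lay 556 to 1328 bp outside the gene. The large share of this group thus rests on the window of 1500 bp, and shares by group were not counted for other windows. The groups were set up by hand from known roles, with earlier results of these data known. They hold 1 to 14 genes each and were not tested, so the order of groups is a description of counts.

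Of 4 phenylpropanoid repressors MYB3 and MYB7 had consensus sites in both lights (50.0%, against 26.1% of all protein-coding genes). MYB4, which represses sinapate ester synthesis, had a single peak of 126 tags in blue light replicate 3, and MYB32 had none. Of 6 regulators of glucosinolates, the sulphur-rich defence compounds of Brassicaceae, MYB34 and MYB51 had a blue consensus site (33.3%, against 43.2% of all genes). MYB51 also had a red one (16.7%, against 26.3%). Of 12 secondary cell wall genes MYB43, MYB46, MYB61 and MYB83 had a blue consensus site (33.3%, against 43.2%). MYB43 and MYB46 also had a red one (16.7%, against 26.3%). Of 12 suberin, cutin and wax genes MYB30 and MYB96 had a blue consensus site (16.7%, against 43.2%). None counted with a red one, although the MYB96 site, at the edge of its window, had peaks in red light replicates 1 and 3, of which that of replicate 1 was centred inside the window.

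Of 14 anther, pollen and GAMYB-like genes MYB99 and MYB120 had a consensus site in both lights (14.3%, against 26.1% of all protein-coding genes). The other 12 had no peak in any library, while 50.5% of all genes had none. MYB118 and MYB119, of 5 ovule and embryo genes, had a blue consensus site (40.0%, against 43.2% of all protein-coding genes), and MYB119 a red one (20.0%, against 26.3%). Of 9 meristem, boundary and root genes MYB59 alone was called, with a consensus site in both lights (11.1%, against 26.1%). Of 5 genes of epidermal cell fate MYB5, a regulator of the seed coat and trichomes, had a blue consensus site alone (20.0%, against 17.1% of all genes). MYB113 and MYB114, anthocyanin activators that the rule kept in, and MYB88 of the stomatal lineage had no peak in any library. Of the 31 MYB genes in no group 8 carried a consensus site in blue light (25.8%, against 43.2%) and 6 in red light (19.4%, against 26.3%).

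**Figure D3:**
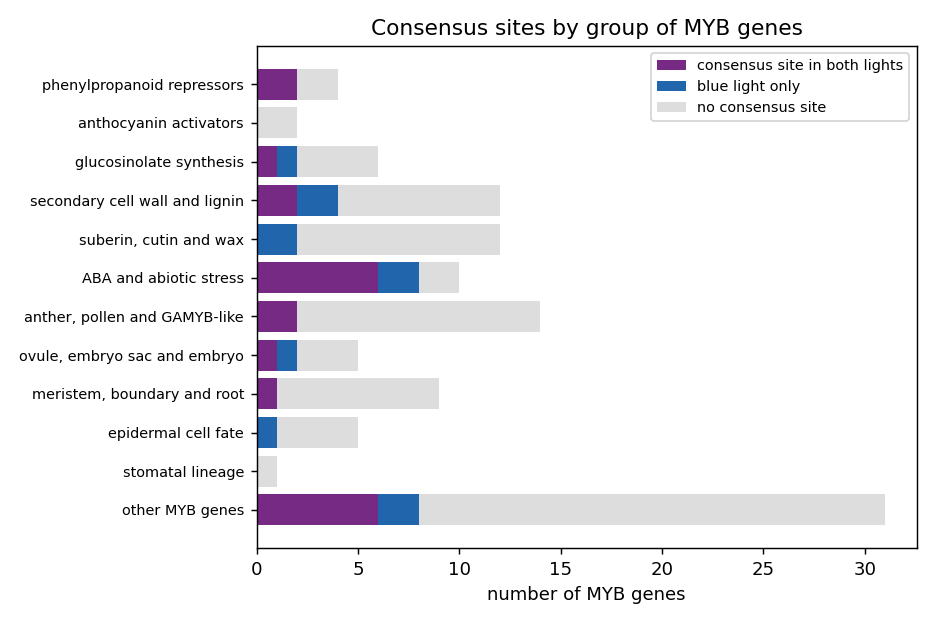
Number of MYB genes per group (x axis) with a consensus site in both lights (purple), in blue light only (blue) or in neither (grey); no gene had one in red light only. The ABA and abiotic stress group has 8 of 10 genes with a blue consensus site, and the anther, pollen and GAMYB-like group 2 of 14, against 43.2% of all protein-coding genes.

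MYB47 had the highest site, just outside one end of the gene at chr1:6453373-6453921 (TAIR10, positions of the peak lists here and below). It held 793.5, 876 and 823 tags in the blue libraries 1, 2 and 3, against 709, 480.1 and 465 in the red ones. All 3 blue values lay above all 3 red values, and red light replicate 1 was the highest of the red ones. Of the 3557 sites called in all 6 libraries 90.1% had a lower mean log2 tag value.

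Among the phenylpropanoid repressors, MYB3, which represses phenylpropanoid and anthocyanin genes, had a site at chr1:8005126-8005674, also in the window of AT1G22630. The site held 404, 380 and 403 tags in blue light, against 295, 249 and 229 in red light. MYB7, which represses phenylpropanoid genes, had the lowest of the 16 sites, inside the gene at chr2:7256338-7256886. It held 172, 196 and 180 tags in blue light, against 176, 113 and 124.5 in red light. At MYB3 the lights did not overlap, while at MYB7 red light replicate 1 lay within the blue range.

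Of the cell wall regulators, MYB46, a master switch of secondary wall formation, had a site at chr5:4061788-4062336, inside the neighbouring gene DiT1 and nearest to its end. It held 442.5, 445 and 435 tags in blue light, against 378, 303 and 265 in red light, with no overlap. MYB43, another activator of wall genes, had 313, 304 and 268 tags in blue light, against 294, 165 and 158 in red light, at chr5:5437230-5437778. There red light replicate 1 lay within the blue range. MYB83, which acts redundantly with MYB46, had 126, 134.5 and 138 tags in blue light, with no peak in red light, nearest to the end of AT3G08505 and centred 1176 bp from MYB83.

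MYB51, an activator of indole glucosinolate synthesis, had a site at one end of the gene at chr1:6389070-6389618 that lay 23.1 to 26.4-fold over the mock in blue and 14.3 to 15.5-fold in red light. The site was also in the window of AT1G18560. It held 304, 320.4 and 309 tags in blue light, against 254, 181 and 188 in red light, and all blue values were above all red ones. MYB34, which acts in the same pathway, had 180, 171 and 199 tags inside the gene in blue light and no red peak. In the blue windows the mock held 24 tags there and 8 to 9 at MYB51.

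In the ABA and stress group, MYB102, which responds to wounding and osmotic stress, had the highest site at chr4:11417057-11417605. It held 459, 477 and 379 tags in blue light, against 394, 304 and 291 in red light, where red light replicate 1 lay above the lowest blue value. MYB74, a gene of the salt response, had a site called in all 6 libraries on each side of the gene. The one at chr4:2617207-2617755 held 356, 363 and 380 tags in blue light, against 386, 254 and 194 in red light, and red light replicate 1 was above all blue values. The one at chr4:2620314-2620862 held 299.6, 314.5 and 330.3 tags in blue light, against 289, 204 and 229 in red light, with no overlap.

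MYB77, which modulates auxin responses in lateral roots, had a site over one gene end at chr3:18559013-18559561 with 350.1, 298 and 335 tags in blue light, against 285, 206 and 219 in red light. MYB13 had 309.9, 336 and 363 tags in blue light, against 348, 237 and 194 in red light at chr1:1888060-1888608, also in the window of AT1G06170. The lights did not overlap at MYB77, and at MYB13 red light replicate 1 lay within the blue range. MYB73 and MYB70, relatives of MYB77, were called in all blue libraries and in red light replicates 2 and 3. MYB73 had 211 ± 4.38 tags in blue light and 141 ± 2.97 in red light (SD, n = 3 and n = 2), and MYB70 had 160.4 ± 3.46 in blue light and 114.5 ± 7.21 in red light (SD, n = 3 and n = 2).

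MYB10 and MYB72, which act in the response to iron deficiency, both had a site in all 6 libraries. At MYB10, chr3:4076397-4076945, it held 339, 353 and 419 tags in blue light, against 296, 204 and 200.2 in red light. The site counted for MYB72, chr1:21024374-21024947, had 285, 295 and 243 tags in blue light, against 220.0, 198 and 174 in red light, and was centred inside NF-YC2 and AT1G56180, which overlap. Neither site showed overlap between the lights. MYB17, a regulator of the change to flowering, had 313, 271 and 343 tags in blue light, against 241, 162 and 178 in red light at chr3:22669788-22670336, nearest to the end of AT3G61240, and the mock held 7 tags there in each blue window.

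Of the 2 pollen genes, MYB99 of the tapetum had a site inside the gene at chr5:25028842-25029390 with 452, 457 and 470.5 tags in blue light, against 402, 295 and 292 in red light. The MYB99 site was also in the window of the gene IRE. MYB120, which acts in pollen tubes, had 363, 328 and 334 tags in blue light, against 306.5, 232 and 246.5 in red light at chr5:22323128-22323676, centred 1198 bp from MYB120 and nearest to the end of AT5G55010. Both were without overlap between the lights.

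**Figure D4:**
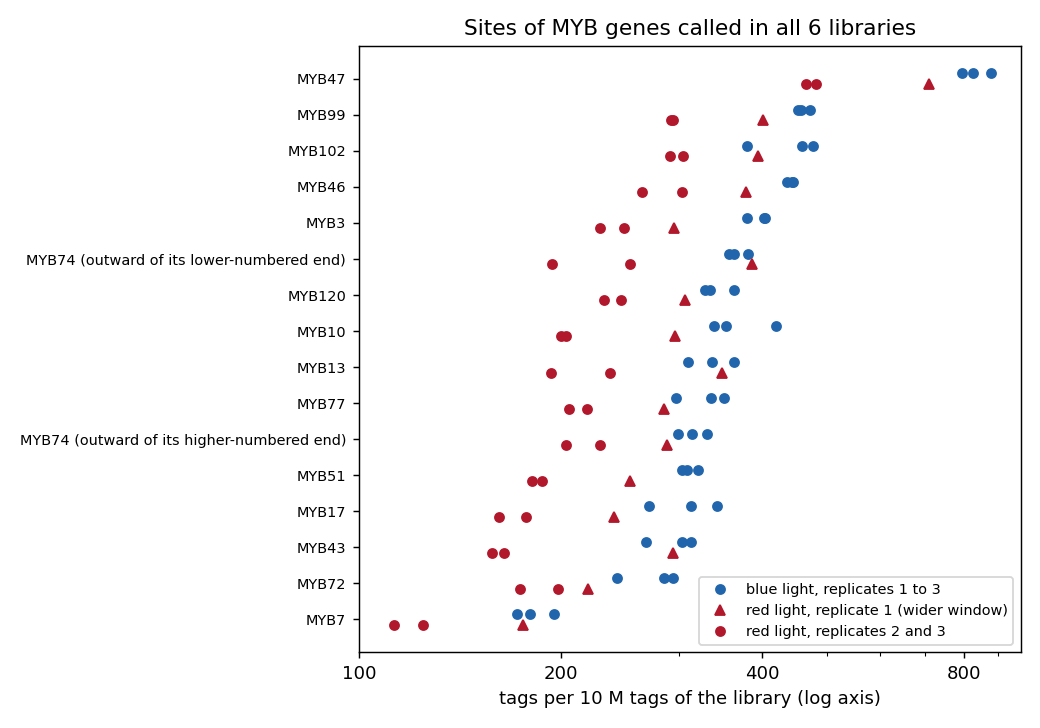
Tags per 10 M tags of the library (log axis) at the 16 sites of MYB genes called in all 6 libraries, with 1 row per site, blue light replicates above red light ones in each row and red light replicate 1 as triangles. MYB47 is highest, from 465 to 876 tags, MYB7 lowest, from 113 to 196, and in each row the triangle is the highest red value.

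At these 16 sites the folds all pointed toward blue light, with a median near that of all sites. The log2 fold of blue over red light ranged from 0.39 (MYB120) to 0.69 (MYB17), with a median of 0.49, against a median of 0.48 over all 3557 sites. MYB17 (log2 fold 0.69, SE 0.21, adjusted p = 0.00947), MYB10 (0.68, SE 0.21, adjusted p = 0.00944), MYB3 (0.62, SE 0.21, adjusted p = 0.0156), MYB47 (0.62, SE 0.21, adjusted p = 0.0181), MYB51 (0.60, SE 0.21, adjusted p = 0.0196) and MYB43 (0.57, SE 0.21, adjusted p = 0.024) passed limma's test with Benjamini-Hochberg adjustment over all sites. MYB46, MYB99 and MYB77 passed too, with log2 folds of 0.48 to 0.50 and adjusted p of 0.0403 to 0.0467. In all 9 of the 16 sites passed toward blue light and none toward red light, against 51.9% and 0.0281% of all sites. At an unadjusted p under 0.05 there were 12 of the 16, against 64.9% of all sites. The lowest blue value lay above the highest red one at 11 of the 16 sites, against 59.4% of all sites, and at 16 of 16 without red light replicate 1, against 98.9%.

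These calls rested on which libraries were included. Without red light replicate 1, all 21 MYB sites called in the 5 other libraries passed toward blue light, as did 4543 of all 4633 such sites. Without any one of the 5 other libraries no MYB site did, against 140 to 220 of 3560 to 3705 sites. The library medians differed by 0.53 (log2) between blue and red light on average. Over all sites they were 8.46 to 8.51 in blue light and 8.32, 7.79 and 7.79 in red light replicates 1, 2 and 3. Red light replicate 1, with its wider windows, had the highest tags of the red libraries at all 16 MYB sites. The share of all sites with this order was not counted. Relative to the library median none of the 16 sites passed in either direction (limma; 0 at an unadjusted p under 0.05, against 31.8% of all sites), with log2 differences from -0.13 at MYB120 to 0.16 at MYB17 and SE of 0.07 to 0.11, against 7.96% of all sites toward blue and 11.8% toward red light. The lowest adjusted p was 0.238, at MYB10, whose difference was 0.16 (SE 0.09). Subtracting the library median takes out any shift shared by all sites, so these values compare a site with the other sites only.

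**Figure D5:**
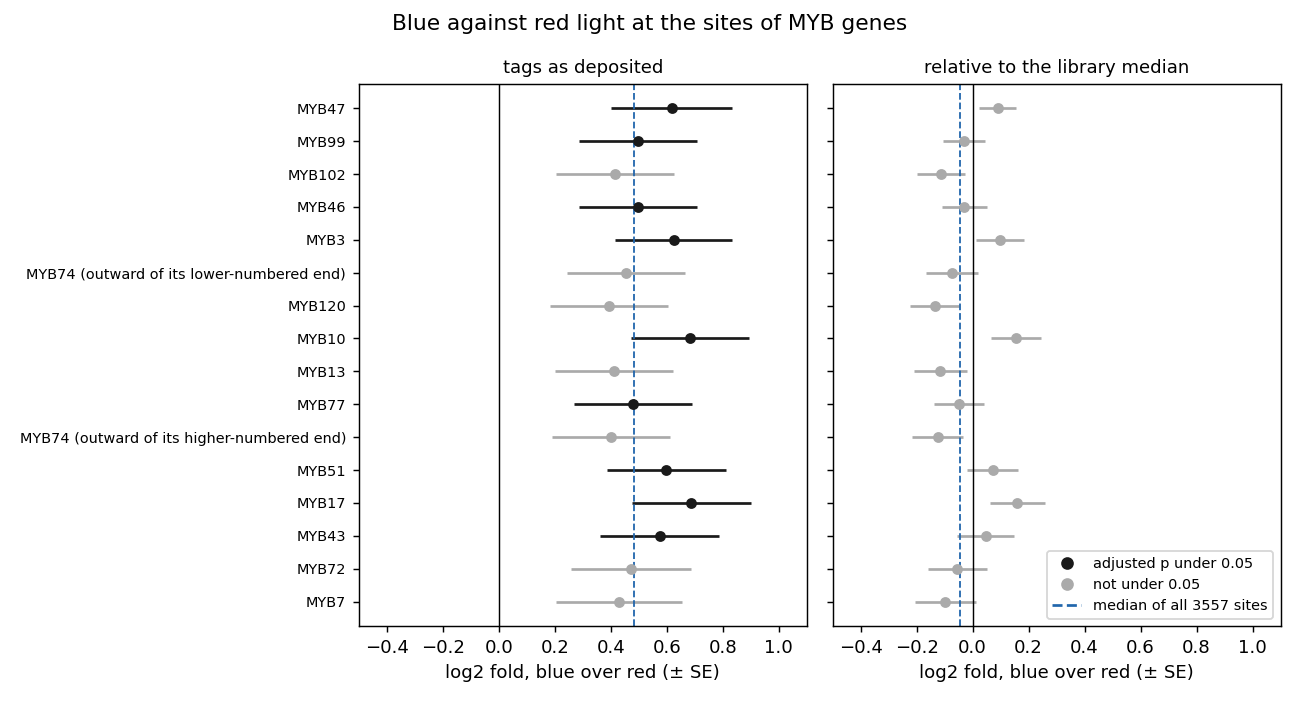
Log2 fold of blue over red light (± SE from limma) at the 16 sites of MYB genes called in all 6 libraries, for tags as deposited (left) and relative to the library median (right), with sites of adjusted p under 0.05 in black and the median of all 3557 sites as a dashed line. Folds as deposited lie between 0.39 and 0.69 around the median of 0.48, and none passes relative to the library median.

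A site in all 3 blue libraries without a peak in any red one was found at 6 MYB genes, MYB118, MYB2, MYB34, MYB15, MYB83 and MYB5 (5.41%, against 7.04% of all genes). MYB118, which acts in seed maturation, had 209, 246 and 201 tags at chr3:10287634-10287984, inside the neighbouring AT3G27770. The mock held 34 tags there, so that 4-fold over it, the least the authors required of a peak, came to 199 tags per 10 M. Blue values were thus close to that bar, and red tags below it would not have been listed.

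At MYB2, an activator of drought and ABA responses, the blue tags were 204, 197 and 194, at chr2:19378673-19379061 inside AT2G47210. There 4-fold over the mock came to 64.3 to 76.0 tags, so all 3 blue values stood well above the bar. MYB15, a regulator of cold and defence responses, had 127.5, 134.5 and 144 tags at chr3:8308880-8309233 beside a bar of 123, and MYB34 lay above a bar of 140.3. The MYB5 site, at chr3:4419122-4419484 inside MAPKKK7, had 104, 93.9 and 91.3 tags. There the mock held 1 tag, and the lowest tag number that passed the false discovery rate was 46.8 to 74.3 tags per 10 M in the red libraries. These bars are those of the blue windows, and the tags of red libraries below them are not in the lists, so an absent red peak gives no red level. A peak also had to reach 4-fold over the 10000 bp around it, which the bars leave out. A red value above a bar could thus still be unlisted, at MYB2 too.

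MYB112, which promotes anthocyanin formation under stress, was called in 5 libraries and had a further site that was listed in red light alone. Inside the gene, at chr1:17704290-17704678, it had 301, 252 and 258 tags in blue light and 182 and 202 in red light replicates 2 and 3. Outward of the gene, at chr1:17702520-17702864, red light replicates 2 and 3 had 132 and 145 tags and no blue library had a peak. Of 5043 red consensus sites 25 (0.496%) had no blue peak.

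MYB119, MYB59 and MYB6 were also called in 5 libraries. MYB119, of the female gametophyte, had 249.5 ± 13.2 tags in blue light (SD, n = 3), and its site was nearest to the end of AT5G58840. In red light MYB119 had 211.5 tags in replicate 1, the library with wider windows, and 154 in replicate 2 (183 ± 40.4, SD, n = 2). MYB59 had 209 ± 12.3 in blue light and 125 ± 5.09 in red light replicates 2 and 3 (SD, n = 3 and n = 2), inside AT5G59770. MYB6 had 145 ± 9.65 tags in blue light and 98.3 ± 9.33 in red light replicates 2 and 3 (SD, n = 3 and n = 2).

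MYB96, an activator of wax synthesis under drought, had 165 ± 18.6 tags in blue light and 149 ± 23.1 in red light replicates 1 and 3 (SD, n = 3 and n = 2). Its site was at the outer edge of its window and nearest to the end of AT5G62460. The peak centre fell inside the window of MYB96 in blue light replicates 2 and 3 and red light replicate 1, so MYB96 counted as a blue consensus gene alone. MYB78 and MYB30, a regulator of hypersensitive cell death, were called in all 3 blue libraries and in red light replicate 3, MYB78 with 155 ± 9.03 tags in blue (SD, n = 3) and 99.3 in red light, and MYB30 with 117 ± 4.68 (SD, n = 3) and 79.1. MYB95 and MYB61 each had a consensus site in blue light only, with 2 blue peaks of 157.5 to 182 and of 85.1 to 107 tags. The MYB95 site was also in the window of AT1G74440.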

How the data were processed

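Peaks were called by the authors in each library alone with findPeaks in its factor style against the mock, per the file headers, with HOMER 4.9 on TAIR10, per the submitters' processing notes. No source used here names the aligner. Thresholds were 4-fold against the mock and against 10000 bp around the peak, with Poisson p-values up to 0.0001 and a false discovery rate of 0.001, per the file headers. The deposited signal is the tag number of a peak scaled by the authors to 10 M tags. The authors' fold over the mock served as a filter, and their mock tags, a deposited unscaled signal, for the bars. The deposited p-values, focus ratio (a fraction) and score of the authors were not used.

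Peaks were joined with bedtools 2.31.1. At sites called in all 6 libraries, log2(tags per 10 M + 1) was fitted by limma 3.58.1 under R 4.3.3 (functions lmFit and, with a trend, eBayes), with the threshold of 0.05 applied to Benjamini-Hochberg adjusted p-values over all 3557 sites. The fit was repeated on values minus the library's median. Both scripts were tested on simulated data. Gene ends and names came from the RefSeq table of TAIR10.1, which carries no strand. In it MYB75 stands under another symbol, so 4 genes were left out by symbol, and MYB genes that carry such a number as a synonym alone were added as an alternative.

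Named were all MYB genes with a site in all 6 libraries (at most 20), those passing limma, the 5 highest without a red peak, and up to 4 examples a group, with MYB genes called in 4 or 5 libraries and those listed at the end of the results added after their values were seen. The MYB genes and lists were chosen with earlier results of these data known. Replicates are biological per the labels. The count test planned as an alternative was not run, since the scaled tags did not pass as recovered whole reads.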

Additional observations from a re-analysis of the deposited data

How the results depend on the processing

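Counts of MYB genes with a consensus site, 32 in blue and 21 in red light, moved with the window and the peak threshold. Windows of 500 bp outward gave 12 in blue and 7 in red light and 5 with a site in all 6 libraries, and per library 12, 13 and 14 MYB genes in blue and 5, 7 and 8 in red light. Windows of 3000 bp gave 52, 36 and 24, and per library 54 and 53 in blue light replicates 1 and 2 and 29, 37 and 40 in red light. Peaks at least 8-fold over the mock left 19 blue and 6 red consensus genes and 6 in all libraries, and per library 20, 21 and 19 in blue and 6, 7 and 7 in red light. Lists cut to 4027 peaks each gave 16 consensus genes in blue and 17 in red light, and blue libraries called 16, 17 and 17, so that the blue counts were no longer above the red ones. By nearest gene end red light replicate 1 called 11. Leaving out a library gave 29 to 32 blue and 15 to 21 red consensus genes and 15 to 20 in all remaining libraries. Joining from 100 bp of overlap, a consensus of all 3 libraries, and synonyms (120 genes, 35 blue and 24 red) kept both counts within 1.5 times. The share of MYB genes with a consensus site was below that of all genes in both lights under each of these settings. The consensus shares of all genes moved too, in blue light to 30.8% with windows of 500 bp and 58.3% with windows of 3000 bp. For the counts per library and in all libraries the share of all genes was not counted under these settings. Those counts therefore do not tell a shift of MYB genes from a shift of all genes.

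With all libraries limma called 9 of 16 MYB sites and 1846 of all 3557 sites toward blue light. Leaving out a library gave 0 to 21 of 16 to 21 MYB sites, and 140 to 4543 of the 3560 to 4633 sites tested. Toward red light it gave 0 to 6 of the sites tested, against 1 with all libraries. Sites called in at least 2 libraries of each light gave 18 of 23 MYB sites toward blue light, with missing values left out. Of all 4975 such sites 3373 were called toward blue and 3 toward red light. Relative to the library median no alternative called a MYB site, and leaving out a library gave 192 to 390 sites toward blue and 241 to 495 toward red light. There the sign of an uncalled difference turned at 5 sites when a library was left out, with ranges of -0.088 to 0.0071 at MYB77, -0.136 to 0.044 at MYB72, -0.209 to 0.030 at the MYB74 site starting at 2617207, -0.054 to 0.042 at MYB46 and -0.017 to 0.173 at MYB43. The cause was not tested.

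Same-numbered libraries did not deviate together (correlations of -0.04, -0.09 and 0.05 over sites), so the numbers were not taken as pairs. A replicate block gave 6 of 16 MYB sites and 1399 of all 3557 sites toward blue and 0 toward red light. Peak lists hold no value below the authors' thresholds, which limits what an absent peak shows.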
